A study of Mus musculus with 30 samples.

Results

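Tumours grown in mice from the oral squamous carcinoma line MOC1E1 were compared with tumours grown from the line MOC1, by bulk RNA sequencing of 3 tumour libraries for each line. The 6 libraries are 6 of the 30 samples of the series. Genes were kept when at least 3 of the 6 libraries had a TPM of 1 or more. TPM is a relative transcript abundance that corrects for transcript length and sums to the same total in every library. Of 55573 genes in the table, 15125 met that rule, and 15035 of these lay outside a list of skeletal muscle genes that was set aside, because muscle can be cut out together with a tumour.

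MOC1 is a carcinogen-induced oral squamous carcinoma line of C57BL/6 mice. MOC1E1 is called MOC1esc1 where the labels describe how the lines were kept, and the labels used here do not say how it was derived. Both lines were grown in a mixture of IMDM and Ham's F12 media with serum, EGF, hydrocortisone and insulin. The tumour libraries are labelled as tumour tissue from C57BL/6J mice bearing MOC1 or MOC1E1, with no treatment. Neither sex nor age is given for these mice, and whether each library is a separate mouse is not stated, so every p-value below measures the spread between these libraries. In the deposited table the MOC1 libraries carry the numbers 3, 4 and 5 and the MOC1E1 libraries the numbers 1, 2 and 3, and values are given in that order. The same lines were also sequenced as cultures, 3 libraries each, which serve here only to show which tumour differences are present without a host; the culture columns carry the tag plusifng, which the culture labels do not explain.

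A squamous epithelium is built from basal cells, which hold to the basement membrane and express keratins 5 and 14, and from suprabasal cells, which switch to other keratins, seal their borders with claudins and build a cornified envelope. Carcinoma cells of this origin also secrete CXC chemokines that bind the receptor Cxcr2 and draw neutrophils into a tumour. Interferon gamma from T cells and NK cells raises antigen presentation genes, T cell-attracting chemokines and the checkpoint ligand PD-L1, encoded by Cd274, in the cells it reaches.

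MOC1E1 tumours had fewer genes up than down. Outside the muscle list 1013 genes were higher and 1735 lower in MOC1E1 than in MOC1 tumours in limma's test on log2(TPM + 1), at an adjusted p of 0.05 or less after Benjamini-Hochberg adjustment over all 15125 genes. With muscle genes counted in, 6.70% of all genes tested were called higher and 11.9% lower, which is the background for every count of list members below. When the libraries were rescaled by their median ratio to a common reference, the calls were 1638 higher and 1698 lower, so that the share of calls that were higher was 49.1% in place of 36.9%. The median difference over all genes was then 0.0077 in place of -0.036 on the log2 scale. With 1 library left out the calls fell to 599 higher and 897 lower (without MOC1 library 3), 472 and 776 (MOC1 library 4), 460 and 1037 (MOC1 library 5), 616 and 1139 (MOC1E1 library 1), 416 and 1165 (MOC1E1 library 2) and 890 and 1687 (MOC1E1 library 3).

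The libraries fell into their labelled groups. Correlations of log2(TPM + 1) across genes were 0.971 to 0.983 for the 6 pairs within a group and 0.938 to 0.955 for the 9 pairs between groups. The first principal component, 56.2% of the variance, separated the groups. On the second, 16.4%, MOC1E1 library 3 was highest (33.0), followed by MOC1 library 3 (16.0), and MOC1E1 library 1 was lowest (-24.6). Between 14580 and 15427 genes reached 1 TPM in a library. Of the skeletal muscle genes, 71 of 90 tested were lower in MOC1E1 tumours and 1 was higher. The sum over the 168 muscle genes with values, tested or not, was 1020, 2861 and 3190 TPM in the MOC1 libraries against 346, 370 and 293 TPM in the MOC1E1 libraries. Carcinoma cells were evident in all 6: the sum of 15 squamous carcinoma markers ran from 22216 to 23159 TPM in MOC1 and from 21233 to 22925 TPM in MOC1E1 tumours, with 4 of the 15 higher (Cdh1, Lamb3, Dsp and Krt5) and 1, Krt6a, lower, at a median of 0.20; 2 were higher without MOC1 library 4, MOC1 library 5 or MOC1E1 library 2. In bulk tissue, fewer cells of a type and less RNA per cell cannot be told apart.

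The largest fall in MOC1E1 tumours was that of Krt13. Krt13, a keratin of the suprabasal layers of oral mucosa, stood at 189.6, 214 and 237 TPM in the MOC1 libraries and at 4.92, 7.41 and 2.38 TPM in the MOC1E1 libraries. The groups were far apart, with a mean 43.5-fold higher in MOC1 tumours and a log2(TPM + 1) difference of -5.27 (SE 0.30, adjusted p = 7.0e-05, limma). Psca, a GPI-anchored surface protein of epithelia, was at 462, 489.5 and 604 TPM in MOC1 and at 33.1, 28.0 and 29.0 TPM in MOC1E1 tumours, a fall of 4.06 (SE 0.12, adjusted p = 4.7e-06). Ltf, which encodes the iron-binding secreted protein lactoferrin, was among the most abundant genes to fall: 915, 1103 and 1158 TPM became 74.5, 69.7 and 72.2 TPM, a log2 difference of -3.85 (SE 0.10, adjusted p = 3.9e-06). The membrane mucin gene Muc4 was all but absent from MOC1E1 tumours, at 0.02, 0.25 and 0.08 TPM against 18.2, 16.2 and 18.5 TPM in MOC1. Ceacam1, an adhesion molecule that is also a ligand of the checkpoint receptor TIM-3, stood at 163, 174 and 165 TPM in MOC1 and at 12.4, 16.7 and 12.9 TPM in MOC1E1 tumours, a fall of 3.50 (SE 0.12, adjusted p = 1.1e-05). In each of these 5 genes every MOC1E1 library lay below every MOC1 library, which the rule that chose them required.

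Other genes with large falls have varied roles. Gabrp, the pi subunit of the GABA-A receptor found in epithelia, fell (-4.12), as did the amino acid transporter gene Slc6a14 (-3.50), Nccrp1, a gene of stratified squamous epithelium (-3.66), and Ly6k, a GPI-anchored protein of the Ly6 family (-3.55). 2300002M23Rik fell by 4.25. Gm49739, a predicted gene, was listed at 0 TPM in MOC1E1 libraries 1 and 3 and at 5.50 TPM in library 2, against 28.8, 26.6 and 65.2 TPM in MOC1. Fxyd1, a regulator of the sodium pump that is abundant in muscle, was at 42.7, 49.5 and 73.9 TPM against 3.83, 13.2 and 0.74 TPM. Fxyd1 is not on the muscle list, the muscle sum given above differs in the same direction, and its part in the Fxyd1 difference was not tested. Without MOC1 library 5 the call for Fxyd1 was lost. Ccl21a, a chemokine of lymphatic vessels, was at 9.54, 24.8 and 16.0 TPM against 0.28, 0.28 and 0.23 TPM; it has near-identical copies in the mouse genome, so its level is uncertain.

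**Figure D1:**
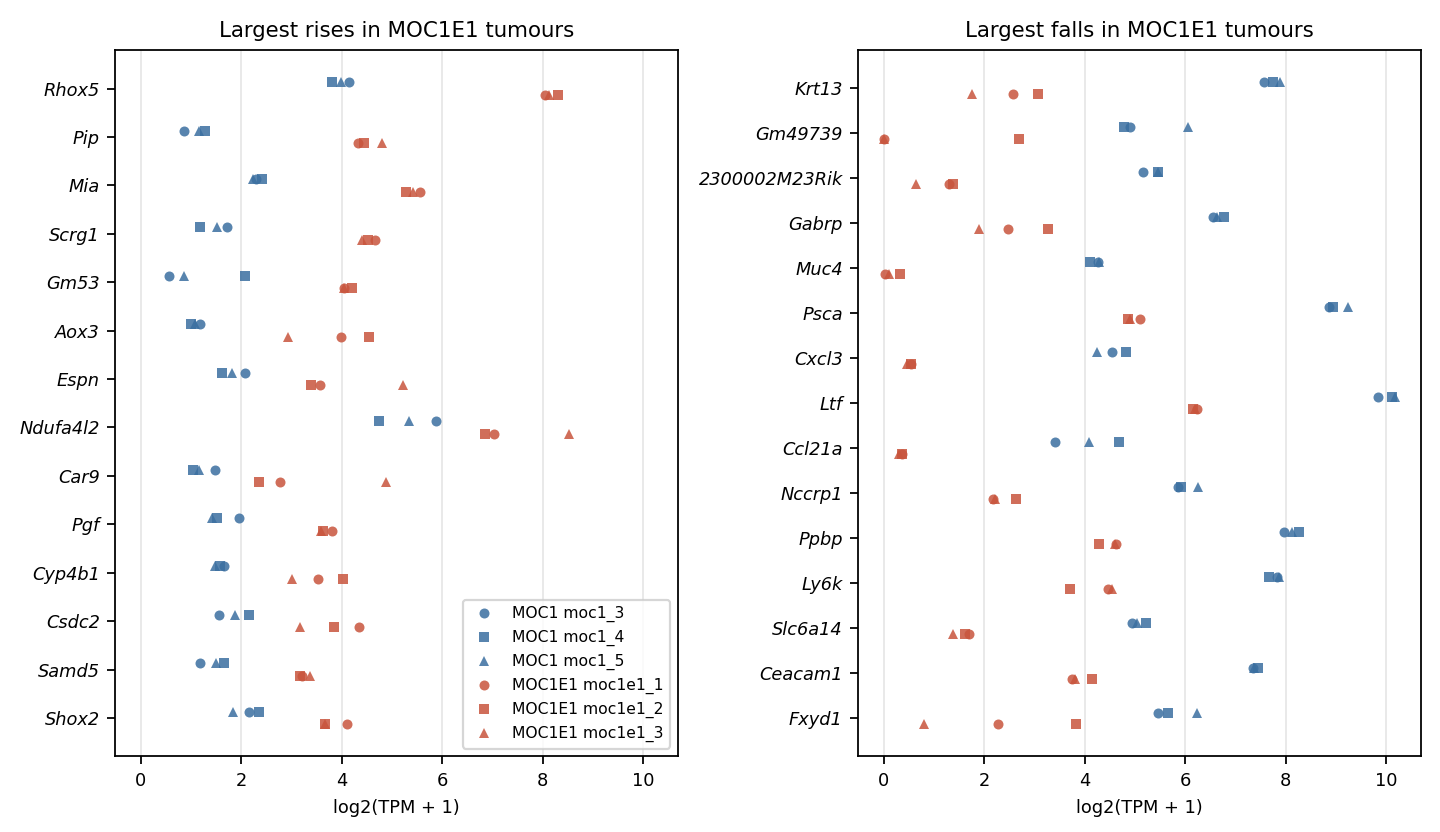
TPM of 29 genes with the largest differences in the 6 tumour libraries, 14 higher and 15 lower in MOC1E1 tumours; each point is 1 library, on a log2(TPM + 1) axis. No gene shown has overlapping groups, which the rule that chose the genes required; Krt13 lies between 189.6 and 237 TPM in MOC1 and between 2.38 and 7.41 TPM in MOC1E1 tumours.

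Lower levels were common among suprabasal genes. Of 36 measured genes of squamous differentiation and cornification, 24 were lower in MOC1E1 tumours and none higher, with a median log2 difference of -1.16 against -0.036 over all genes tested. The summed level of all 43 genes on that list, tested or not, was 4953 to 5500 TPM in MOC1 and 1598 to 2507 TPM in MOC1E1 tumours. Ly6d, a surface marker of stratified squamous epithelium, fell from 1687, 1821 and 1846 TPM to 567, 599.9 and 544 TPM (-1.64, SE 0.07, adjusted p = 3.1e-05). Elf3, an epithelium-specific ETS transcription factor, fell (-2.67), as did Krt4, the type II partner of Krt13 (-2.63), and Sprr1a, a precursor of the cornified envelope (-2.02). Tgm1, the transglutaminase that cross-links that envelope, fell from 43.3 ± 1.56 TPM to 10.1 ± 1.22 TPM (SD, n = 3). Lor, which encodes loricrin of the skin-type envelope, was at 10.5, 10.7 and 34.6 TPM in MOC1 and 7.77, 10.4 and 7.20 TPM in MOC1E1 tumours, without a call. The small proline-rich gene Sprr2a2 had overlapping groups, at 88.8, 159.8 and 792 TPM in the MOC1E1 libraries against 754, 597 and 706 TPM in MOC1. Leaving out any 1 library left between 21 and 27 of the 36 lower.

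Krt5, the main type II keratin of the basal layer, was higher in MOC1E1 tumours, at 5868, 5895 and 6658 TPM against 4857, 4887 and 5054 TPM (0.31, SE 0.08, adjusted p = 0.031). Krt14 was at 9566, 10117 and 10368 TPM in MOC1 and at 8906, 9275 and 9251 TPM in MOC1E1 tumours, a difference of -0.13 (SE 0.07) that did not pass the test. Trp63, which encodes the basal lineage transcription factor p63, had a difference of 0.08 (SE 0.10). Lama3 and Lamb3, which encode laminin chains of the basement membrane, rose by 0.56 and 0.62. The list of 20 basal keratins and adhesion genes also holds keratins that are not of the basal layer, such as Krt19. Within that list 4 were higher and 7 lower, at a median of 0.01. The 7 lower ones were all keratins: Krt19, Krt80, Krt6a, Krt6b, Krt7, Krt16 and Krt20. Krt20 was low in both groups, at means of 1.28 TPM in MOC1 and 0.06 TPM in MOC1E1 tumours. Krt19, a keratin of simple epithelia and of some stem cells, fell from 423, 451 and 478 TPM to 40.5, 63.8 and 40.5 TPM (-3.23, SE 0.17, adjusted p = 6.2e-05). The count of 4 higher genes was 2 without MOC1 library 4, without MOC1 library 5 or without MOC1E1 library 1.

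The type I keratin genes on chromosome 11 set called and uncalled genes next to each other. In gene order Krt13 and Krt19 flank Krt15, a keratin of basal cells, and Krt15 was at 38.6, 26.3 and 32.4 TPM in MOC1 and at 30.6, 48.7 and 23.3 TPM in MOC1E1 tumours, with overlapping groups and a difference of 0.03 (SE 0.26). Further along the same row, Krt14 and Krt17 had no call and Krt16 fell by 0.68. The 250 bases before the first of both annotated Krt13 start sites, and those before Cldn4, are shown because both are among the epithelial genes that fell most; capitals mark matches to the AP-1-type motif TGANTCA, searched on both strands.
Krt13, chr11:100121567-100121816, minus strand: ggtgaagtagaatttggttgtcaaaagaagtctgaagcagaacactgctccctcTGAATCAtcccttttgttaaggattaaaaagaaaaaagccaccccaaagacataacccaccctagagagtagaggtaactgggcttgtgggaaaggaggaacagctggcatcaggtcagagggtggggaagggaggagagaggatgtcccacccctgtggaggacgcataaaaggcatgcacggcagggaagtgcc
Cldn4, chr5:134946935-134947184, minus strand: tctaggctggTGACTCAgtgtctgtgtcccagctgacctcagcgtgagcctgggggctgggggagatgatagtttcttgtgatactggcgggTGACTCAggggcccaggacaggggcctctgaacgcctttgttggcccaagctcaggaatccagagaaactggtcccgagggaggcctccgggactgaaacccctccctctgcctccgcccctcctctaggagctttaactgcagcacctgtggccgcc
Sequences and coordinates are from RefSeq, assembly GRCm38.p6, written 5′ to 3′ on the strand of the gene. The motif begins 196 bases before the Krt13 start site and 240 and 158 bases before that of Cldn4. It occurs in 2217 of 32851 promoter windows of this length, 6.75%. Of windows searched but not printed, that of the second Krt13 start site holds 2 matches. The window of Cldn3, which also fell, holds no match. A match is a description of the letters and not a binding site.

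Of 6 claudin genes on the list of junction genes 5 fell, and both cadherin genes rose. Cldn4, a sealing claudin of differentiated epithelium, stood at 173, 175 and 168 TPM in MOC1 and at 20.1, 25.3 and 34.1 TPM in MOC1E1 tumours, a mean 6.49-fold higher in MOC1 (-2.68, SE 0.17, adjusted p = 0.00013). Its neighbour on chromosome 5, Cldn3, fell from 141, 135 and 142 TPM to 39.8, 43.9 and 42.0 TPM, and Cldn7 from 105, 119 and 98.6 TPM to 27.4, 24.7 and 27.9 TPM. In all 3 claudins every MOC1E1 library lay below every MOC1 library, and in Cldn4 the MOC1E1 libraries were further apart than in Cldn3 or Cldn7. Cldn1 fell by 1.56 and Cldn23 by 2.44, and Cldn8, with a difference of -0.12 (adjusted p = 0.75), had no call. E-cadherin, encoded by Cdh1, went the other way, at 204, 212 and 205 TPM against 159, 154 and 139 TPM (0.46, SE 0.08, adjusted p = 0.0078), P-cadherin, encoded by Cdh3, rose by 0.75, and the epithelial adhesion gene Epcam had a difference of -0.01 (SE 0.07). Cdh1 lies on chromosome 8, where 23.6% of genes were higher, at a median of 0.27. The part of that shift in the Cdh1 difference was not tested. Among 31 junction and identity genes 3 were higher and 14 lower, at a median of -0.30. Without MOC1 library 4 the lower count was 9.

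Few mesenchymal genes differed. Of 25 genes of epithelial-mesenchymal transition, 2 were higher, 1 lower, and the median was -0.20. The higher ones were Vim, which encodes the intermediate filament vimentin, at 511, 470.0 and 539 TPM against 221, 381 and 283 TPM (0.81, SE 0.18, adjusted p = 0.020), and the transcription factor gene Snai2, at 90.2, 98.0 and 107 TPM against 61.6, 64.2 and 58.0 TPM (0.67, SE 0.09, adjusted p = 0.0037). The lower one was the stromal protease gene Mmp3, which lost its call in 7 of 13 alternative settings, among them those without any 1 library other than MOC1 library 5. Vim is also expressed by fibroblasts, whose markers are given below. In the cultures Vim was likewise higher in MOC1E1, at means of 516 TPM in MOC1 and 1612 TPM in MOC1E1. Snai2 went the other way there, at means of 46.4 and 25.9 TPM, and was called lower. Without MOC1 library 5 or MOC1E1 library 1, 1 of the 25 was higher.

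**Figure D2:**
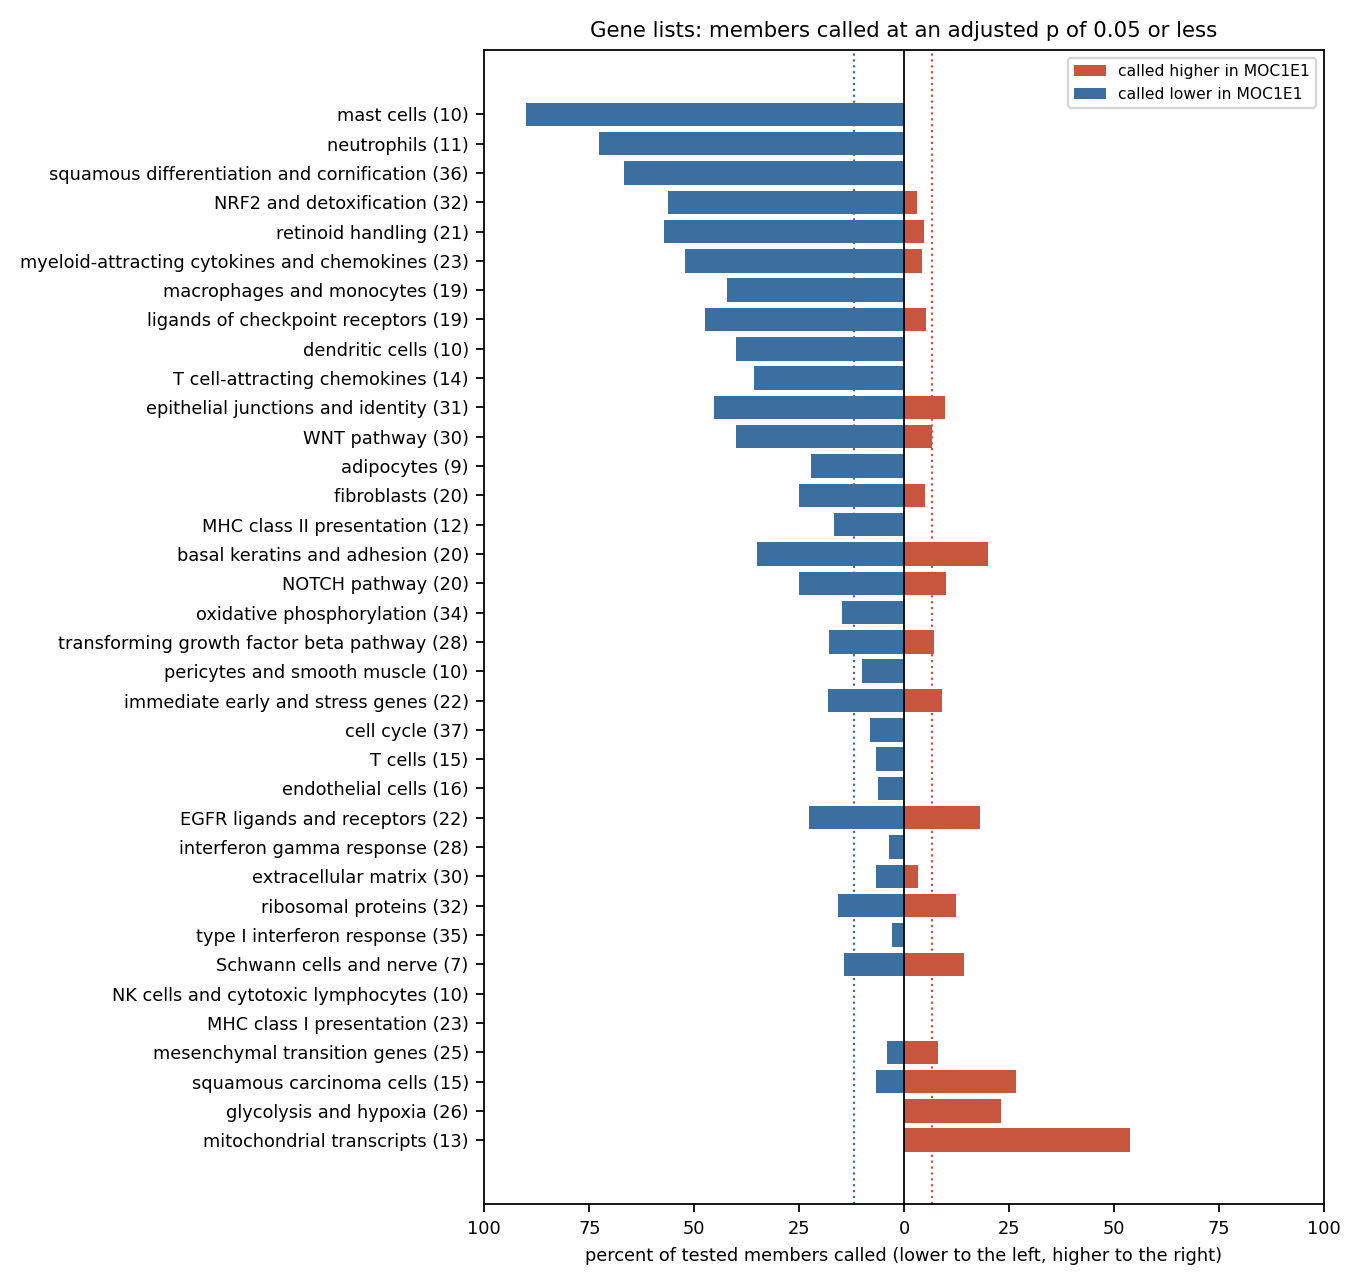
Percent of the measured members of each gene list that were called lower (to the left) or higher (to the right) in MOC1E1 tumours at an adjusted p of 0.05 or less, for lists with at least 7 members tested (their number in brackets); dotted lines mark the background of 6.70% higher and 11.9% lower. The mast cell, neutrophil and squamous differentiation lists lie furthest to the left, and the skeletal muscle list is not drawn; mitochondrial transcripts lie furthest to the right.

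Most chemokines that act through Cxcr2 were lower in MOC1E1 tumours, and they are neighbours on chromosome 5. Ppbp, whose product gives rise to CXCL7, fell from 248, 307 and 277 TPM to 23.6, 18.4 and 23.1 TPM (-3.62, SE 0.12, adjusted p = 1.1e-05). Cxcl3 fell from 22.3, 27.1 and 17.8 TPM to 0.45, 0.45 and 0.37 TPM, a mean 52.9-fold higher in MOC1 (-4.02, SE 0.18, adjusted p = 3.2e-05). Cxcl5 fell from 87.8, 86.2 and 66.6 TPM to 12.4, 12.9 and 11.6 TPM (-2.60, SE 0.13, adjusted p = 4.6e-05). All 3 genes were low in every MOC1E1 library, with no overlap, which the rule that chose Ppbp and Cxcl3 required. Cxcl2 was at 7.49, 6.70 and 3.51 TPM against 0.52, 2.88 and 1.26 TPM (-1.49, SE 0.38, adjusted p = 0.033). Cxcl1 did not follow: 36.3, 43.3 and 25.9 TPM in MOC1 overlapped with 26.7, 39.3 and 31.5 TPM in MOC1E1 tumours, a difference of -0.10 (SE 0.21). Gene order along the cluster is Cxcl5, Ppbp, Pf4, Cxcl3, Cxcl15, Cxcl1 and Cxcl2, so the uncalled genes Pf4 and Cxcl1 lie among the lower ones. Pf4, a platelet chemokine that does not act on neutrophils through Cxcr2, had no call, and Cxcl15 was too low to be tested.

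The 250 bases before the start sites of these genes are shown because Cxcl1 had no call while Ppbp, Cxcl3 and Cxcl2 were lower; capitals mark the NF-kB-type motif GGGANTTTC or, in Ppbp, the AP-1-type motif TGANTCA, each searched on both strands.
Ppbp, chr5:90768268-90768517, plus strand: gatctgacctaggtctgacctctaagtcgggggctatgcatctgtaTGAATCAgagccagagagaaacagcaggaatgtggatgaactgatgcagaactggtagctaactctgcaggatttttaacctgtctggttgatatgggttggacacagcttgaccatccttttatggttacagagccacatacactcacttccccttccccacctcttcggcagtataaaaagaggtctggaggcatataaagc
Cxcl3, chr5:90785851-90786100, plus strand: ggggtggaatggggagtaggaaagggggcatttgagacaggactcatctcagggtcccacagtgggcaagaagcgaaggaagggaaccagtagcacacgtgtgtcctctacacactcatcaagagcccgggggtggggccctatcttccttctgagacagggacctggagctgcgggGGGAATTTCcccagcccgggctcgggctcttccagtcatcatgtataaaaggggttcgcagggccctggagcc
Cxcl1, chr5:90890995-90891244, plus strand: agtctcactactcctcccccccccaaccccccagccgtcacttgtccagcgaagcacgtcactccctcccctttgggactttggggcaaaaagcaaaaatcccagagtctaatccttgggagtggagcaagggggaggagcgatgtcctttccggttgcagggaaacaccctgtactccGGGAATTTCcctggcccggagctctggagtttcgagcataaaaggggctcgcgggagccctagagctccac
Cxcl2, chr5:90903649-90903898, plus strand: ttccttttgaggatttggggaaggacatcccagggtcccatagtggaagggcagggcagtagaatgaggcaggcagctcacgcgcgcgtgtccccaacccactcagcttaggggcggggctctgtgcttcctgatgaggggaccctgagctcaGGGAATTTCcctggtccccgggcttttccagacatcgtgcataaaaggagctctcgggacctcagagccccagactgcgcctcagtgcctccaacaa
Cxcl3, Cxcl1 and Cxcl2 share the same 9 letters of the NF-kB-type motif, which begin 73, 71 and 97 bases before the start site. The Ppbp window holds no NF-kB-type motif, and the Pf4 window, which is not printed, holds neither motif. The Ppbp window holds the AP-1-type motif 204 bases before the start site. The NF-kB-type motif occurs in 309 of 32851 windows of this length, 0.941%. The window of Cxcl5 is not used here.

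Among 23 myeloid-attracting cytokines and chemokines 12 were lower and 1 higher in MOC1E1 tumours, at a median of -0.93. Il1a, an alarmin cytokine stored by epithelial cells, fell from 10.7, 10.8 and 9.57 TPM to 0.54, 0.75 and 0.70 TPM (-2.77, SE 0.16, adjusted p = 7.0e-05). Csf3, the growth factor of neutrophils, fell by 1.37. Mif, a cytokine made by most cells, was the one that rose, at 1308, 1236 and 1568 TPM against 914, 788 and 919.7 TPM (0.65, SE 0.11, adjusted p = 0.0079).

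Transcripts of neutrophil markers were scarcer too. S100a8 and S100a9 encode the subunits of calprotectin, the main soluble protein of neutrophils. S100a8 was at 72.2, 94.7 and 106 TPM in MOC1 and at 9.15, 16.6 and 4.45 TPM in MOC1E1 tumours (-3.20, SE 0.38, adjusted p = 0.0021), and S100a9 at 82.2, 108 and 104 TPM against 19.5, 12.2 and 5.89 TPM. In the cultures S100a8 was at means of 0.287 TPM in MOC1 and 0.273 TPM in MOC1E1, and S100a9 at 0.663 and 0.043 TPM. Which cells of the tumours made these transcripts was not tested. The G-CSF receptor gene Csf3r fell by 2.02 and Clec4d, a lectin receptor of myeloid cells, fell by 1.74. Cxcr2 was at 2.39, 3.96 and 3.37 TPM against 0.36, 0.44 and 0.04 TPM. Of 11 neutrophil markers tested 8 were lower and none higher, at a median of -1.72. The sum over all 15 markers on the list was 237, 303 and 284 TPM against 72.2, 77.6 and 23.8 TPM. The lower count was 4 without MOC1 library 3 or MOC1 library 4 and 5 without MOC1 library 5. Whether the chemokine and the neutrophil differences depend on each other was not tested.

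Mast cell genes fell together. The proteases Mcpt1 and Mcpt2, of mucosal mast cells, were at 444, 339.8 and 351 TPM and at 318, 220.2 and 249 TPM in MOC1 tumours, and at 55.5, 117 and 132 TPM and at 44.8, 82.7 and 93.4 TPM in MOC1E1 tumours. Both groups were separate for both genes. Kit, the receptor that mast cells need to survive, fell from 9.88, 10.8 and 8.44 TPM to 1.88, 2.78 and 2.67 TPM (-1.64, SE 0.18, adjusted p = 0.0013). Tpsb2, a tryptase (-1.71), Cpa3, carboxypeptidase A3 (-1.60), and Mcpt4, a chymase (-1.40), fell as well. In all, 9 of 10 mast cell markers were lower, at a median of -1.50.

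Macrophage genes were lower in part. Arg1, the arginine-degrading enzyme of some tumour macrophages, had the largest difference: 309, 312 and 328 TPM in MOC1 against 31.0, 38.6 and 43.3 TPM in MOC1E1 tumours (-3.05, SE 0.12, adjusted p = 1.9e-05). Arg1 was also present in the cultures, at means of 134 TPM in MOC1 and 39.4 TPM in MOC1E1. Cd14, the co-receptor for endotoxin, fell by 1.74 in tumours and was likewise present in cultures, at 20.4 and 3.77 TPM. Ccr2, the chemokine receptor of recruited monocytes, fell from 12.3, 12.1 and 8.34 TPM to 4.01, 4.16 and 2.71 TPM (-1.36, SE 0.21, adjusted p = 0.0052), and the mannose receptor gene Mrc1 fell by 1.04. The general macrophage genes Csf1r and Adgre1 had no call, with differences of -0.50 (SE 0.21) and -0.38 (SE 0.24). Of 19 markers 8 were lower and none higher, at a median of -0.54.

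Lymphocyte markers were low and mostly uncalled. Of 15 T cell markers 1, Cd5, an inhibitory co-receptor, was lower, at 2.30, 3.45 and 3.28 TPM against 6.61, 6.44 and 4.23 TPM (-0.75, SE 0.21, adjusted p = 0.047). Without MOC1 library 3, MOC1 library 4, MOC1E1 library 1 or MOC1E1 library 2 none was called, and without MOC1E1 library 3, 4 were lower. None of 10 NK and cytotoxic lymphocyte markers was called, with 4 lower without MOC1E1 library 3. Cd8a, the co-receptor of cytotoxic T cells, was at 7.61, 5.06 and 4.62 TPM in MOC1 and at 1.59, 3.37 and 10.8 TPM in MOC1E1 tumours, so that the lowest and the highest library both came from MOC1E1. Neither of the B cell genes measured, Ighm and Igkc, had a call. Of 10 dendritic cell markers 4 were lower (Naaa, Cd209a, Itgax and Wdfy4), at a median of -0.60. The count was 0 without MOC1 library 3, 1 without MOC1 library 4 or MOC1 library 5, and 2 without MOC1E1 library 1 or MOC1E1 library 2. Naaa was also present in the cultures, at means of 16.7 TPM in MOC1 and 9.07 TPM in MOC1E1. Cd209a and Itgax were listed at 0 TPM in both cultures, and Wdfy4 was at means of 0.083 and 0 TPM.

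Interferon genes split the MOC1E1 tumours among themselves. The interferon gamma response list held 31 genes, of which 28 were tested. The summed level of all 31 was 2170, 2204 and 1841 TPM in the MOC1 libraries, 915 and 984 TPM in MOC1E1 libraries 1 and 2, and 3185 TPM in MOC1E1 library 3. MOC1E1 libraries 1 and 2 each lay below every MOC1 library in 27 of the 28 genes, and library 3 in 1. Library 3 was the highest of all 6 in 21. Cxcl9, a chemokine for activated T cells, had 25.5, 32.1 and 146 TPM in the MOC1E1 libraries around 58.7, 72.8 and 67.0 TPM in MOC1. Gbp2, a guanylate-binding protein induced by interferon gamma, had 79.1, 81.2 and 324 TPM against 232, 278 and 235 TPM. Of the 28 genes, 1 was called lower in the comparison of all 6 libraries, and 22 of the 28 without MOC1E1 library 3; the median was -0.53 with all 6.

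The gene that was called with all 6 libraries is Cd274, which encodes PD-L1. Its level was 15.2, 15.5 and 14.5 TPM in MOC1 and 3.12, 3.74 and 9.03 TPM in MOC1E1 tumours (-1.47, SE 0.31, adjusted p = 0.017). Even library 3, where most interferon genes were highest, stayed below every MOC1 tumour. The call was lost in 5 of 14 alternative settings, with no filter on low values and without MOC1 library 3, 4 or 5 or MOC1E1 library 2, at adjusted p values of up to 0.063.

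MOC1E1 library 3 also stood apart in type I interferon and MHC class I genes. Of 35 type I interferon response genes, 1, the oligoadenylate synthetase-like gene Oasl1, was lower with all 6 libraries and 14 were lower without MOC1E1 library 3; library 3 was the highest of the 6 in 26. Without any other single library Oasl1 lost its call. Ifit3, an interferon-induced antiviral gene, was at 19.4, 17.5 and 101 TPM in the MOC1E1 libraries and at 83.5, 70.5 and 63.5 TPM in MOC1. None of 23 MHC class I presentation genes was called with all 6 libraries, and without MOC1E1 library 3, 9 were lower and 1 higher. The class I light chain gene B2m was at 3656, 3634 and 3464 TPM in MOC1 and at 3225, 3139 and 4481 TPM in MOC1E1 tumours. Among 12 MHC class II presentation genes 2, Ctss and Ifi30, were lower, at a median of -0.10, and library 3 was the highest of the 6 in 2 of the 12. With MOC1 library 3, 4 or 5 left out none of the 12 was called, and with any MOC1E1 library left out 1 was.

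**Figure D3:**
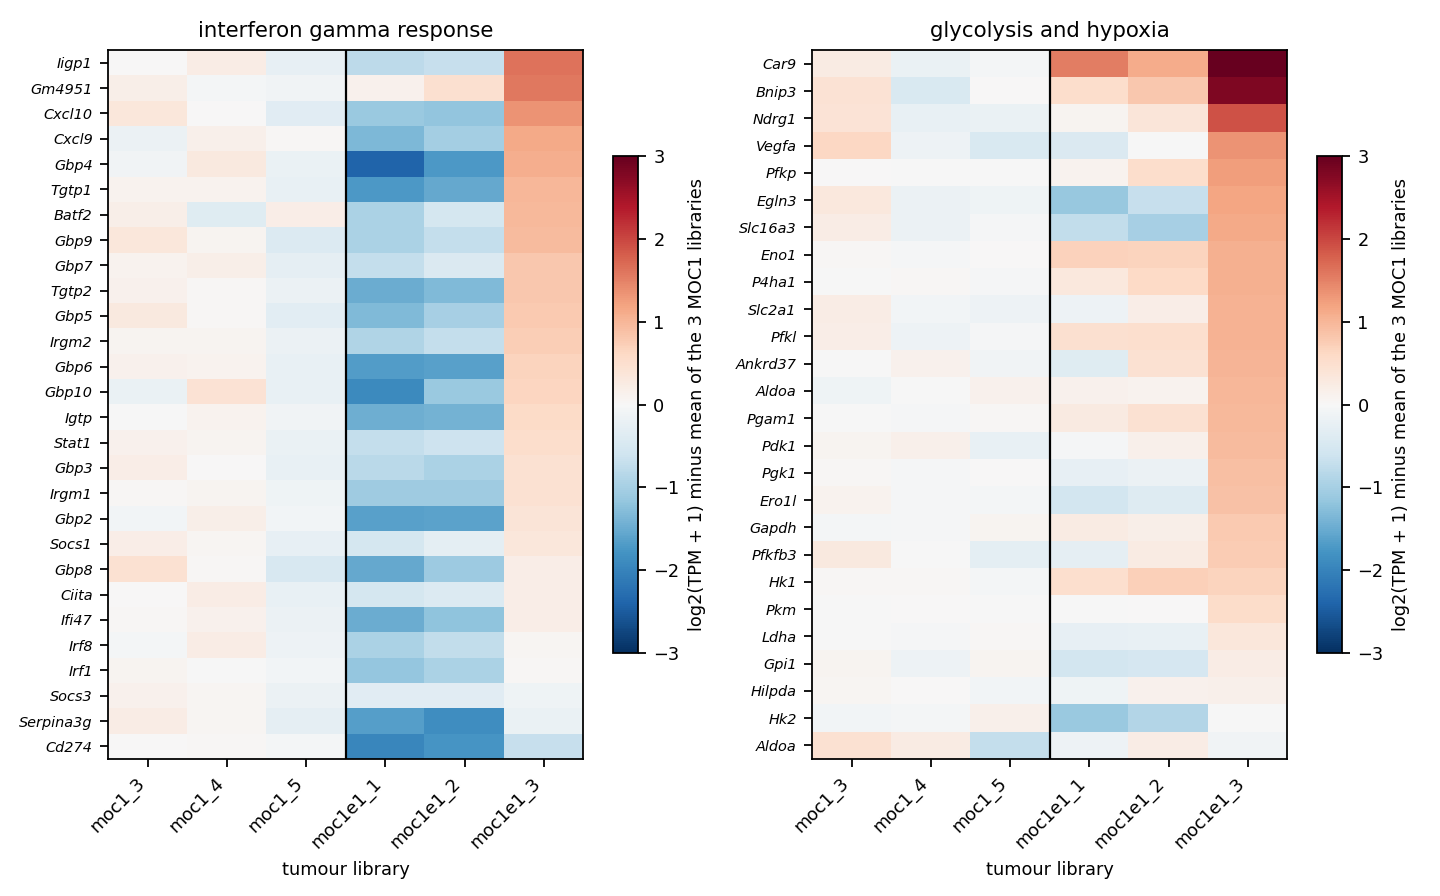
Heat maps of the interferon gamma response genes and the glycolysis and hypoxia genes (rows) in the 6 tumour libraries (columns, MOC1 left of the line and MOC1E1 right of it); colour is log2(TPM + 1) minus the mean of the MOC1 libraries. In both lists MOC1E1 library 3 lies apart from MOC1E1 libraries 1 and 2, with interferon gamma list sums of 3185 against 915 and 984 TPM and glycolysis list sums of 13245 against 8274 and 8274 TPM.

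Of 19 ligands of checkpoint receptors 9 were lower and 1 higher, with a median of -0.47. Beside Ceacam1 and Cd274, Nectin2, a ligand of PVRIG and TIGIT, fell from 30.3, 32.4 and 32.6 TPM to 11.4, 11.6 and 12.4 TPM (-1.36, SE 0.10, adjusted p = 0.00030), and Lgals3, which encodes galectin-3, a ligand of LAG-3, also fell (-1.46). Lgals9, which encodes galectin-9, a ligand of TIM-3, rose from 79.7, 86.5 and 77.7 TPM to 179.9, 161 and 193 TPM (1.12, SE 0.09, adjusted p = 0.00046). Ceacam1 and Lgals9, both ligands of TIM-3, thus differed in opposite directions in tumours, each with separate groups, which the rule that chose Ceacam1 required. In culture both were called lower in MOC1E1, Ceacam1 by 3.47 and Lgals9 by 0.49, the latter at means of 56.6 TPM in MOC1 and 39.9 TPM in MOC1E1. The lower count was 5 without MOC1 library 3, 3 without MOC1 library 4, 4 without MOC1 library 5 and 5 without MOC1E1 library 2. Of 14 T cell-attracting chemokines 5 were lower, among them Cxcl12 (-1.43), Cxcl14 (-0.88) and Cxcl16 (-0.58); 3 were lower without any 1 MOC1 library and 9 without MOC1E1 library 3.

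The largest rise in MOC1E1 tumours was that of Rhox5, a homeobox gene of the X chromosome that is normally active in reproductive tissues. It stood at 16.7, 12.9 and 14.7 TPM in MOC1 and at 263, 314 and 279.6 TPM in MOC1E1 tumours, a mean 19.3-fold higher (4.18, SE 0.12, adjusted p = 3.9e-06). Several further genes with large rises encode secreted proteins. Pip, prolactin-induced protein, went from 0.80, 1.43 and 1.24 TPM to 19.01, 20.6 and 26.7 TPM (3.42, SE 0.19, adjusted p = 6.7e-05). Mia, a secreted protein of cartilage and melanoma, went from 3.89, 4.32 and 3.70 TPM to 46.1, 38.0 and 41.4 TPM (3.11, SE 0.13, adjusted p = 2.0e-05). Scrg1, a secreted protein of cartilage and mesenchymal cells, went from 2.29, 1.27 and 1.87 TPM to between 20.1 and 24.4 TPM. The MOC1E1 libraries were close to each other in all 4 genes. Pgf, placental growth factor, a ligand of VEGF receptor 1, rose by 2.04.

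Other leading rises were uneven among the MOC1E1 tumours. Aox3, an aldehyde oxidase, was at 14.7, 22.4 and 6.58 TPM against 1.27, 0.99 and 1.11 TPM in MOC1. Espn, which encodes the actin-bundling protein espin, was at 10.8, 9.50 and 36.0 TPM against 3.20, 2.08 and 2.53 TPM (2.22, SE 0.45, adjusted p = 0.015), and was not called without MOC1 library 4 or 5. Cyp4b1, a cytochrome P450, rose by 1.95, Csdc2, a cold shock domain RNA-binding protein, by 1.92, Samd5 by 1.80 and the homeobox gene Shox2 by 1.70. Gm53, a predicted gene, rose by 2.93.

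Some genes of low oxygen and glycolysis were higher in MOC1E1 tumours, with the highest levels in library 3. Car9, carbonic anhydrase 9, a standard marker of hypoxia, was at 1.79, 1.05 and 1.23 TPM in MOC1 and at 5.79, 4.08 and 28.3 TPM in MOC1E1 tumours (2.10, SE 0.59, adjusted p = 0.045). Ndufa4l2, a mitochondrial protein induced by hypoxia, was at 58.0, 25.7 and 39.3 TPM against 129, 114 and 365 TPM (2.14, SE 0.46, adjusted p = 0.018). Every MOC1E1 library lay above every MOC1 library in both genes, which the rule that chose them required. The calls were lost in 7 of 13 and 4 of 14 alternative settings. Among these were the settings without MOC1 library 4 or 5 for both genes, and without MOC1 library 3 or MOC1E1 library 1 for Car9. Without MOC1E1 library 3 the Car9 difference was 1.33 (adjusted p = 0.010). Of 26 glycolysis and hypoxia entries, with Aldoa present under a pair of gene IDs, 6 were higher and none lower, at a median of 0.36. Eno1, enolase 1, rose from 895, 843 and 874 TPM to 1416, 1382 and 1839 TPM (0.82, SE 0.11, adjusted p = 0.0039), and Hk1, hexokinase 1, by 0.63, Pfkl, a phosphofructokinase, by 0.68, and P4ha1, a collagen prolyl hydroxylase, by 0.67. Hk1, Pfkl, P4ha1 and Ndufa4l2 lie on chromosome 10, where 16.8% of genes were higher, at a median of 0.20. Car9 and Eno1 lie on chromosome 4, where 14.3% were higher, at a median of 0.13. The part of these shifts in the differences was not tested. Bnip3, a mitophagy receptor induced by hypoxia, was at 55.1, 29.4 and 41.2 TPM in MOC1 and at 58.5, 72.0 and 289 TPM in MOC1E1 tumours, without a call. Library 3 was the highest of the 6 in 23 of the 26. Without MOC1E1 library 3, 6 were higher and 6 lower; the higher count was 3 without MOC1 library 3 or MOC1E1 library 2 and 2 without MOC1 library 4 or MOC1 library 5.

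Detoxification genes were lower in MOC1E1 tumours. Of 32 genes of NRF2 and detoxification 18 were lower and 1 higher, at a median of -0.49. Gsto1, glutathione S-transferase omega 1, was by far the most abundant of those named, and fell from 2782, 3417 and 3323 TPM to 668, 690.5 and 607 TPM (-2.27, SE 0.10, adjusted p = 2.9e-05). Gsta3, a glutathione S-transferase of the alpha class, fell (-2.06), as did the aldehyde dehydrogenase gene Aldh3a1 (-2.45) and G6pdx, the entry enzyme of the pentose phosphate pathway (-0.78). Gclm, the modifier subunit of the enzyme that starts glutathione synthesis, was the one that rose, at 149, 171 and 152 TPM against 101, 92.8 and 98.0 TPM (0.69, SE 0.08, adjusted p = 0.0023). Nqo1, a classical NRF2 target, was at 2.56, 4.22 and 3.49 TPM in MOC1 and at 5.90, 6.79 and 5.18 TPM in MOC1E1 tumours, with an adjusted p of 0.0504 that missed the threshold. Named members therefore differed in direction.

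Retinoid genes were lower as well, 12 of 21 with 1 higher and a median of -0.82. Aldh1a3, which makes retinoic acid, fell from 59.8, 62.3 and 63.4 TPM to 13.2, 18.3 and 15.2 TPM (-1.94, SE 0.13, adjusted p = 0.00015). Stra6, the cell surface receptor that takes up retinol, fell from 224, 227 and 222 TPM to 72.8, 75.6 and 112 TPM (-1.39, SE 0.16, adjusted p = 0.0016), and Dhrs3, which returns retinal to retinol, fell as well (-1.01). Aldh1a3 is on both the retinoid and the detoxification list. Adh7, an alcohol dehydrogenase that oxidises retinol, was the one that rose, by 1.49. Without MOC1 library 5 the lower count was 7.

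The cultures hold the same lines without a host. In culture 20.2% of 13975 genes tested were higher and 33.2% lower in MOC1E1. Of the 1013 genes higher in MOC1E1 tumours, 606 (59.8%) were also higher in culture, which is 23.1% of the 2628 genes higher in culture among those tested in tumours; 75 were lower in culture, 249 had no call and 83 were too low to test. Of the 1735 lower genes, 1035 (59.7%) were also lower in culture, 23.4% of 4425, while 49 were higher, 184 had no call and 467 were too low to test. Ceacam1 had culture means of 51.2 TPM in MOC1 and 3.70 TPM in MOC1E1, a difference of -3.47 that matched -3.50 in tumours. Rhox5 was at 28.1 and 842 TPM in culture, and Cxcl3 at 14.3 and 0.413 TPM, Gabrp at 16.7 and 0.760 TPM and Muc4 at 8.86 and 0.300 TPM. These genes differed between the lines in the same direction in tumours and in cultures. All culture columns carry the tag plusifng, and whether the cultures were treated is not known. A treatment and the lack of a host cannot be told apart here.

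Whether the difference in tumours departed from that in culture was tested as the tumour difference minus the culture difference over all 12 libraries, where 10.2% of 16813 genes were called higher and 6.61% lower. Of the genes just named it was called for Rhox5 (-0.67, adjusted p = 0.0049) and Muc4 (-1.14, adjusted p = 0.0015) and not for Ceacam1, Cxcl3 or Gabrp. Krt13 was low in both cultures, at 4.53 and 3.85 TPM, so that the tumour difference minus that of culture was -5.08 (SE 0.40, adjusted p = 1.1e-05). Psca was at 13.0 and 16.7 TPM in culture and Ly6d at 4.37 and 8.65 TPM, both slightly higher in MOC1E1 there (0.33 and 0.85) and lower in MOC1E1 tumours. Pip and Scrg1 were listed at 0 TPM in both cultures and Mia at 0.200 and 0.540 TPM. Samd5 was at 11.5 and 10.8 TPM in culture and rose by 1.80 in tumours. Gm49739 was at 182 and 203 TPM in the cultures, without a call. Tumours and cultures come from separate tables, so differences are compared here and not levels. Among tumour-higher genes the interaction was called higher for 310, lower for 23 and not called for 680, and among tumour-lower genes it was called lower for 584, higher for 195 and not called for 956.

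Interferon genes gave a further contrast between both settings. In culture 27 of 28 interferon gamma response genes and 34 of 35 type I interferon response genes were lower in MOC1E1, in the columns tagged plusifng. Cxcl9 was at 149 and 9.89 TPM, Ifit3 at 109.7 and 3.04 TPM and Cd274 at 32.6 and 8.14 TPM. The tumour difference was higher than that of culture for Cxcl9 by 3.38 (SE 0.66, adjusted p = 0.0048) and for Ifit3 by 3.66 (SE 0.68, adjusted p = 0.0037), and for Cd274 the interaction of 0.41 (SE 0.36, adjusted p = 0.48) was not called. Cd274 was thus lower in MOC1E1 both in culture and in tumours. Both tumour values include MOC1E1 library 3.

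**Figure D4:**
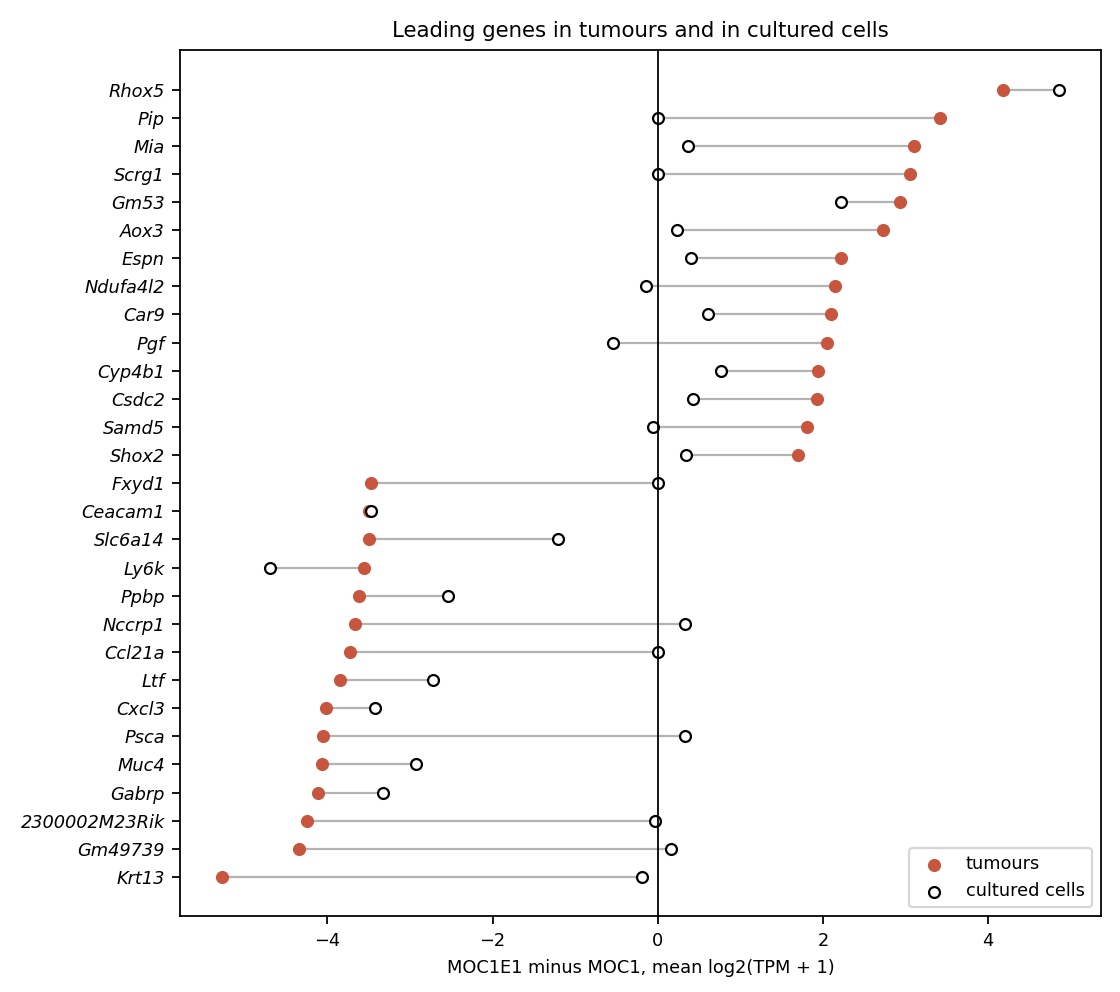
Difference between MOC1E1 and MOC1 in mean log2(TPM + 1) (horizontal axis) for 29 leading genes (rows), with a filled point for tumours and an open point for cultures joined by a line. In Ceacam1 (-3.50 and -3.47) the points lie close together, and in Krt13 (-5.27 and -0.19) and Psca (-4.06 and 0.33) far apart.

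The calls were spread unevenly over chromosomes. A chromosome was known for 14160 of the 15035 genes outside the muscle list. On the X chromosome 31.0% of 422 genes were lower in MOC1E1 tumours and 1.90% higher, with a median of -0.36, and the median in culture was -0.55. Chromosome 8 was the reverse, with 23.6% of 751 genes higher and 5.73% lower, a median of 0.27 in tumours and of 0.30 in culture. Chromosome 10 followed, with 16.8% higher and a median of 0.20. When genes were put in order and cut into 4 segments of equal gene number, the medians on X ran from -0.40 to -0.32 and on chromosome 8 from 0.25 to 0.31, so the shift covered the whole length of both. Chromosome 7 differed along its length, with medians of -0.33, -0.35, 0.05 and 0.13 from its first to its last segment. Over 14 alternative settings the median ranged from -0.42 to -0.25 for X and from 0.21 to 0.32 for chromosome 8. Rhox5, on X, ran against the shift of its chromosome.

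**Figure D5:**
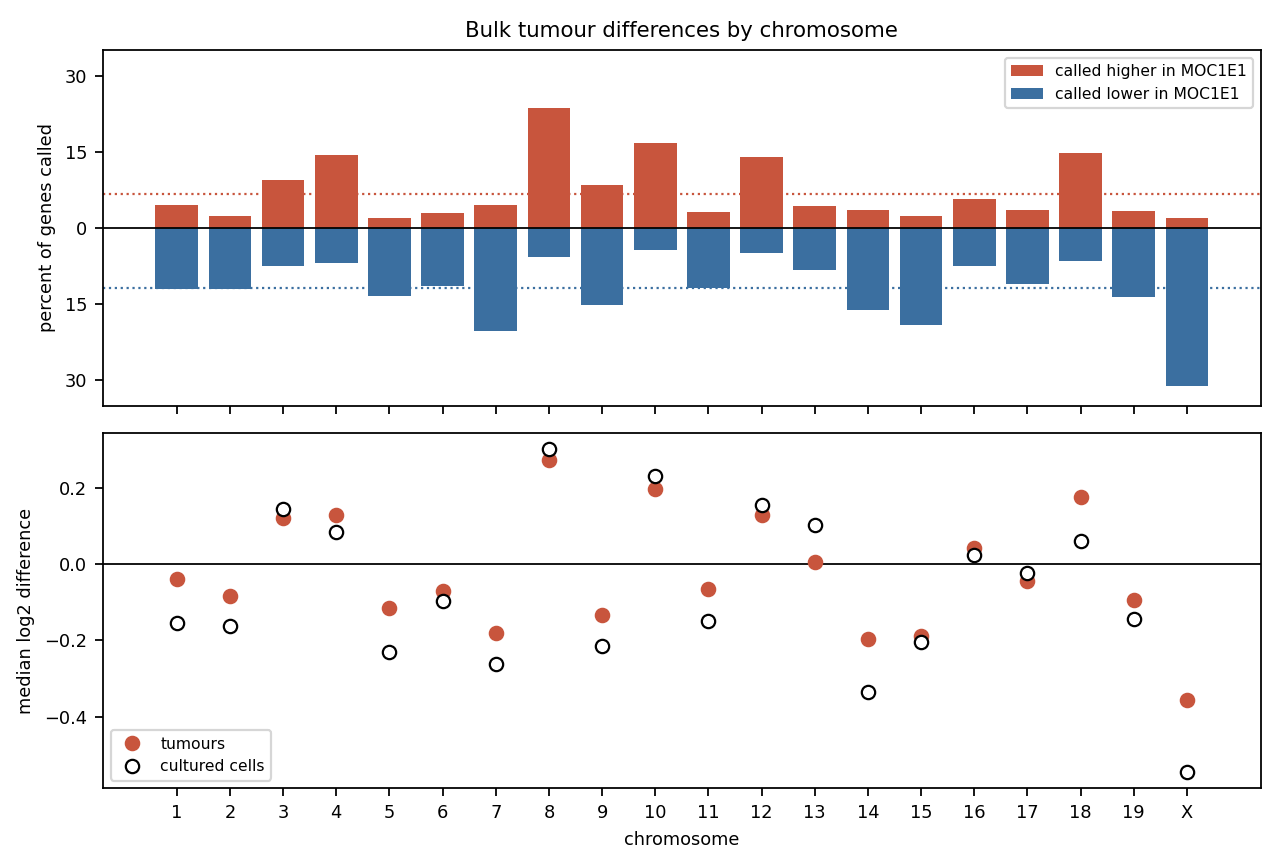
Percent of tested genes called higher (up) and lower (down) in MOC1E1 tumours on each chromosome, with the background as dotted lines, and the median log2(TPM + 1) difference per chromosome in tumours (filled) and in cultures (open). Chromosome 8 has the largest share of higher calls (23.6%) and X the largest share of lower calls (31.0%).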

How the data were processed

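RNA was sequenced as poly(A)-selected libraries from whole tumours and from cultures of both lines. The deposited values are TPM, made by the authors; Trimmomatic 0.36 and kallisto 0.46.0 are listed per the submitters' processing notes, together with the builds mm10 and GRCh38, without a role for each. Counts are not used here, so depth is unknown and no counting interval is given. TPM are shares of a fixed total, so a rise of some genes lowers others.

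Genes with TPM of at least 1 in at least 3 libraries were fitted on log2(TPM + 1), which understates the change of low genes, with limma 3.58.1 (trend; R 4.3.3) over the 6 tumour libraries, over the 6 culture libraries, and over all 12 for the interaction. Benjamini-Hochberg adjustment ran over all genes tested and calls were made at 0.05; the procedure was tested on simulated data. Symbols came from the series' own feature list and, for 1469 genes, from a reference table; 4 tested genes had none and 21 lay in groups of rows with identical values. Promoters and chromosomes came from RefSeq.

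The members and the 40 gene lists, which hold 1038 genes, were chosen with earlier results of these data known. Named genes are, in each direction, the 15 called genes that changed most while averaging at least 5 TPM and showing no overlap between groups, plus up to 4 called members per list by p (the lowest p values where none was called); 1 leading gene and 1 list member are not reported here. Other genes named were chosen after their values were seen. Skeletal muscle genes stayed in the fit and were left out of the counts. Alternatives were other pseudocounts and filters, rescaling, weights, robust estimation and leaving out each library.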

Additional observations from a re-analysis of the deposited data

Results flagged for a closer look

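For 24 of 29 leading genes the difference between MOC1E1 and MOC1 in tumours departed from that in cultures, in limma's interaction test at an adjusted p of 0.05 or less. The values below are the tumour difference minus the culture difference in log2(TPM + 1), and each rests on 3 libraries in each of the 4 groups. Over all 16813 genes in that test 10.2% were called higher and 6.61% lower, and of the 1013 and 1735 genes called higher and lower in tumours 680 and 956 had no call in it. The leading genes were chosen for their tumour differences, so the sign and size of the values below partly follow from that choice, and nothing is read from the number called.

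Positive values were found for 12 genes. The secreted proteins Pip, Scrg1, Mia and Pgf had 3.42, 3.05, 2.73 and 2.59; Pip and Scrg1 were listed at 0 in all culture libraries, so that their values equal the tumour differences. The enzymes Aox3 and Cyp4b1 had 2.50 and 1.18, the hypoxia-induced Ndufa4l2 had 2.28, and Samd5, Espn, Csdc2 and Shox2 had 1.87, 1.82, 1.49 and 1.35. Ly6k, at 1.14, fell less in tumours than in cultures.

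Negative values were found for 12 genes. Rhox5, at -0.67, rose less in tumours than in cultures. Ppbp, Ltf, Muc4 and Slc6a14, at -1.07, -1.13, -1.14 and -2.29, fell in both settings and further in tumours. Fxyd1 and Ccl21a, at -3.48 and -3.72, were likewise listed at 0 in all culture libraries, and Nccrp1 and 2300002M23Rik, at -3.99 and -4.22, were near 0 there. Psca, Gm49739 and Krt13, at -4.39, -4.50 and -5.08, were present in both cultures and were not called lower there. For Gm53, Car9, Gabrp, Cxcl3 and Ceacam1 the interaction was not called.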

How the results depend on the processing

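Outside the muscle list 1013 genes were called higher and 1735 lower. The higher count was 663 with no filter on low values and 1638 with median-ratio rescaling; under the other 6 settings with all libraries it ran from 933 to 1233, and the lower count from 1299 to 2068 over all 8. Leaving out 1 library gave 416 to 890 higher and 776 to 1687 lower; without MOC1E1 library 3, 732 of the 1013 and 1410 of the 1735 were still called. These fits have 1 library fewer in a group. The interaction count of 2828 ran from 2011 to 3012. Of 29 leading genes 25 kept their call in every setting where they were tested, and Espn, Ndufa4l2, Car9 and Fxyd1 lost it in 2, 4, 7 and 1. Igkc, not called, changed sign from 0.16 to -0.23 with array quality weights and ran from -0.44 (without MOC1 library 5) to 0.64 (without MOC1E1 library 2) on leaving out 1 library, at -0.12 without MOC1E1 library 1 and -0.040 without MOC1E1 library 3; the cause was not tested. No paired analysis was possible because the columns of both groups carry numbers that do not match the replicate numbers in the labels. Depth is unknown, so low TPM values have no counting error here.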

Other observations

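Of 20 fibroblast markers 5 were lower and 1, Pdpn, higher in MOC1E1 tumours, at a median of -0.65; Fbln1, a matrix glycoprotein, fell by 1.02 and Thy1, a surface marker, fell by 0.96. Of the 20, 4 were high enough to be tested in cultures, where Fbln1 was at means of 31.9 TPM in MOC1 and 3.36 TPM in MOC1E1 and Pdpn at 161 and 148 TPM, while Thy1 was at 0 and 0.043 TPM. The fibroblast sum was 2578, 4421 and 3150 TPM in MOC1 and 3180, 3732 and 1212 TPM in MOC1E1 tumours, and MOC1E1 library 3 lay below every MOC1 library in 19 of the 20. Without that library 7 were lower, and without MOC1 library 5, 3 were; Pdpn was not called without MOC1 library 4. Of 30 extracellular matrix genes 2 were lower and 1, Col18a1, higher, at a median of -0.24. The higher count was 0 without MOC1 library 5 or MOC1E1 library 1 or 2, 2 without MOC1 library 4 and 3 without MOC1E1 library 3, and the lower count was 1 without MOC1 library 4 or 5 or MOC1E1 library 1. One of 16 endothelial markers, Vwf, was lower (0 without any library except MOC1E1 library 1), and so was 1 of 10 pericyte and smooth muscle markers, Notch3, which was not called without MOC1 library 3 or MOC1 library 4. Of 9 adipocyte markers 2 were lower, Car3, which muscle also expresses, (-3.44), and Lipe (-1.05), and 8 were without MOC1E1 library 3 and 1 without MOC1 library 3 or 4 or MOC1E1 library 2. Lipe was also present in the cultures, at means of 12.8 TPM in MOC1 and 7.83 TPM in MOC1E1, while Car3 was listed at 0 TPM there. Of 7 Schwann cell markers Cnp was higher and Pmp22 lower, and neither was called without MOC1 library 4 or 5; 2 were higher without MOC1E1 library 3. Of 3 hair follicle genes Krt27 was lower, with none lower on leaving out any 1 MOC1 library and 2 lower and 1 higher without MOC1E1 library 3. None of 4 red blood cell genes was called, and 1 was lower without MOC1 library 5.

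Among signalling lists the share of higher members was near the background of 6.70% for WNT and transforming growth factor beta genes. Of 30 WNT pathway genes 12 were lower and 2 higher, at a median of -0.54. Wnt7b, a ligand of epithelia, fell from 37.2, 37.0 and 37.9 TPM to 17.1, 16.5 and 10.99 TPM (-1.30, SE 0.16, adjusted p = 0.0026), and Rnf43, which removes WNT receptors from the surface and is itself a WNT target, from 26.1, 16.8 and 12.4 TPM to 4.07, 4.85 and 4.69 TPM. The lower WNT count was 7 without MOC1 library 3 and 6 without MOC1 library 4, and the higher count was 0 without MOC1 library 3 and 1 without any other single library. Of 20 NOTCH pathway genes 5 were lower and 2 higher. The ligand gene Jag2 rose from 86.0, 86.1 and 65.3 TPM to 150.02, 173 and 158 TPM (1.02), while the targets Nrarp and Hes1 fell (-1.03 and -0.48). In culture Nrarp and Hes1 were called higher in MOC1E1, by 0.65 and 0.85. The list members Hey1 and Heyl had no call in tumours (0.10 and -0.05). Among 22 genes of EGF and FGF receptor signalling 4 were higher, among them Fgfr1 by 0.79 and the feedback phosphatase Dusp6 by 0.71. In the same list 5 were lower, among them Lrig1, an inhibitor of EGFR (-1.32), and the ligand Hbegf (-0.71). Fgfr1 lies on chromosome 8 and Dusp6 on chromosome 10, where 23.6% and 16.8% of genes were higher. The part of these shifts in both differences was not tested. Of 28 transforming growth factor beta genes 5 were lower, led by Ltbp2, and 2 higher, one of them Fst, an activin antagonist, by 0.66. Small counts moved with single libraries. For the NOTCH list the lower count was 3 without MOC1 library 3 or 4 and the higher count 1 without MOC1 library 5 or MOC1E1 library 1 or 2. For the EGF and FGF receptor list the higher count was 2 without MOC1 library 3 or 5 or MOC1E1 library 1 or 2, and the lower count 2 without MOC1 library 4 and 3 without MOC1 library 3 or 5 or MOC1E1 library 1 or 3. For the transforming growth factor beta list the lower count was 2 without MOC1 library 4 and 3 without MOC1 library 3 or MOC1E1 library 2 or 3, and the higher count 1 without MOC1 library 3 or 5 or MOC1E1 library 1 or 2.

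Of 37 cell cycle genes 3 were lower (Cdkn1a -0.89, Ccne1 -0.73 and Ccnb2 -1.02) and none higher, at a median of -0.04. Of 13 mitochondrial transcripts 7 were higher and none lower, at a median of 0.49, and their sum was 58519, 48232 and 53984 TPM in MOC1 against 79921, 70360 and 68337 TPM in MOC1E1 tumours. The mitochondrial count ran from 4 (without MOC1E1 library 2) to 9 (without MOC1E1 library 3). The subunit genes of oxidative phosphorylation in the nucleus did not share that rise, with 5 of 34 lower and none higher; Ndufa4 fell by 0.90. That count of 5 was 2 or 3 without any 1 library other than MOC1E1 library 3. Of 32 ribosomal protein genes 4 were higher and 5 lower, and after median-ratio rescaling 1 and 0; on leaving out 1 library the higher count fell to as few as 1 (without MOC1 library 4) and the lower count to 1 (without MOC1 library 3 or 5 or MOC1E1 library 1 or 2). Of 22 immediate early and stress genes 2 were higher and 4 lower, with Hspa1a and Ier3 lower (-0.78 and -0.79); 1 was higher without MOC1E1 library 2 or any 1 MOC1 library.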
